A study of Mus musculus with 4 samples.

Results

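The genes described here encode the machinery that transports peptides into the endoplasmic reticulum, trims them there and loads them onto MHC class I molecules. The set holds 8 genes, chosen by symbol for these functions, out of 55385 genes in the deposited table, and all 8 were among the 14238 genes tested. They are Tap1 and Tap2, Tapbp, Tapbpl, Erap1, Calr, Canx and Pdia3. RNA was sequenced in bulk from 4TO7 cells, a mouse mammary carcinoma line, recovered from enzymatically digested tumors of Balb/c mice. 2 libraries came from tumors that resisted immunotherapy and 2 from control tumors. All 4 samples carry the treatment label untreated, while their treatment protocol reads anti-PD-L1 in vivo (an antibody against the checkpoint ligand PD-L1), so what the control tumors received is not settled by the labels. The labels name no genotype, age or time point. The series concerns resistance to checkpoint blockade and low antigen presentation, and the comparison asks whether transcripts of the loading machinery differed between the 2 groups.

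As background, the proteasome cuts proteins into peptides, and the TAP transporter, a dimer of the Tap1 and Tap2 products, carries them into the endoplasmic reticulum. There the aminopeptidase Erap1 shortens them, tapasin (Tapbp) holds empty class I molecules next to TAP, the tapasin-related protein Tapbpl edits peptides outside that complex, and calreticulin (Calr), calnexin (Canx) and the disulfide isomerase Pdia3 fold the class I chains. Tap1, Tap2, Tapbp, Tapbpl and Erap1 are grouped here as interferon-inducible, whereas Calr, Canx and Pdia3 serve glycoproteins in general. Tumor cells with little transporter or tapasin are known to display fewer peptides to CD8 T cells.

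The libraries held between 45666470 and 49592054 counted reads, so even the member with the fewest reads, Tapbpl, had 595 to 962 reads a library. Of 15 leukocyte markers, 13 averaged under 5 normalized counts, and Cd8a, Ms4a1, Nkg7 and Xcr1 had no read in any library. Ptprc, the pan-leukocyte antigen, had 0 and 2.15 normalized counts in the resistant libraries and 1.92 and 1.01 in the controls. The exceptions were Flt3 and Cd68. Flt3, a receptor of dendritic cell precursors, had 12.2 and 31.1 normalized counts in the resistant libraries against 5.76 and 6.05, and did not pass (1.58 ± 0.54, adjusted p = 0.112). The lysosomal gene Cd68 rose from 4788 ± 2208 to 10270 ± 418 normalized counts (SD, n = 2; limma, adjusted p = 0.0356), a call that was lost without resistant replicate 1 or 2 (adjusted p = 0.0764 and 0.0598) and under both other filters on low values (adjusted p = 0.167 with none and 0.052 at a mean of 100). Without Cd68, the markers summed to 26.5 and 50.4 normalized counts in the resistant libraries and 16.3 and 19.2 in the controls. The endothelial list of 6 genes summed to between 18.3 and 34.6 normalized counts.

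The epithelial keratins Krt8 and Krt18 lay between 12649 and 42630 normalized counts. Of 6 tested epithelial and carcinoma markers, the keratin Krt19 rose, with 361 ± 89.9 normalized counts in the resistant libraries against 44.7 ± 4.72 (2.97 ± 0.25, adjusted p = 0.000812). The adhesion molecule gene Epcam fell from 294 ± 67.1 to 101 ± 18.4 (-1.53 ± 0.25, adjusted p = 0.011), a call lost without resistant replicate 1 and with no filter on low values (adjusted p = 0.0723 and 0.0715). The 6 markers had a median log2 fold change of 0.18 without control replicate 1 and -0.29 without control replicate 2. Of 6 fibroblast markers 4 were tested, and 1 of them, the proteoglycan gene Dcn, fell, with 153 ± 14.4 normalized counts against 623 ± 198 (adjusted p = 0.00343). The receptor gene Pdgfra had 6940 and 8313 normalized counts in the resistant libraries against 8504 and 5766 (0.12 ± 0.19, adjusted p = 0.739). The collagen genes Col1a1, Col1a2 and Col3a1 were highest in control replicate 2, at 69.6, 76.7 and 13.1 normalized counts, and Lum had 0 in 3 libraries and 1.92 in the other. Without control replicates 1 and 2, the log2 fold change was -1.66 and -2.31 for Dcn and 0.40 and -0.16 for Pdgfra. It was -0.99 and 1.40 for Col1a1 and -5.25 and 0.06 for Col1a2. Under a replicate block in limma, 2 fell, Dcn and Col1a2 (adjusted p = 0.0488 for Col1a2), as did 585 of all 14238 tested genes. Col1a2 had 1.02 and 1.07 normalized counts in the resistant libraries and 0.961 in control replicate 1. The part of these differences in the results below was not tested. In a bulk sample, fewer cells of a type and less RNA per cell cannot be told apart.

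3 of the 8 genes fell in the resistant cells, none rose, and the 3 were all interferon-inducible members: Tap1, Tapbp and Erap1. A call is an adjusted p under 0.05 in limma, with Benjamini-Hochberg adjustment over all tested genes. Among all tested genes 4.73% fell, 5.32% rose and 10.1% changed in either direction. At an unadjusted p under 0.05, 4 of the 8 were lower and 0 higher, against 12.6% and 13.8% of all tested genes, and limma voom on the recovered reads gave the same counts before and after adjustment. For 7 members both resistant libraries lay below both controls, a pattern seen in 28.3% of tested genes, and for the remaining one, Pdia3, both lay above, as in 28.4% of tested genes. Groups that did not overlap in either direction made up 56.7% of tested genes, so the lack of overlap alone sets the members little apart. The median log2 fold change, resistant minus control, was -0.33 for the 8 genes and 0.00 for all tested genes.

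**Figure D1:**
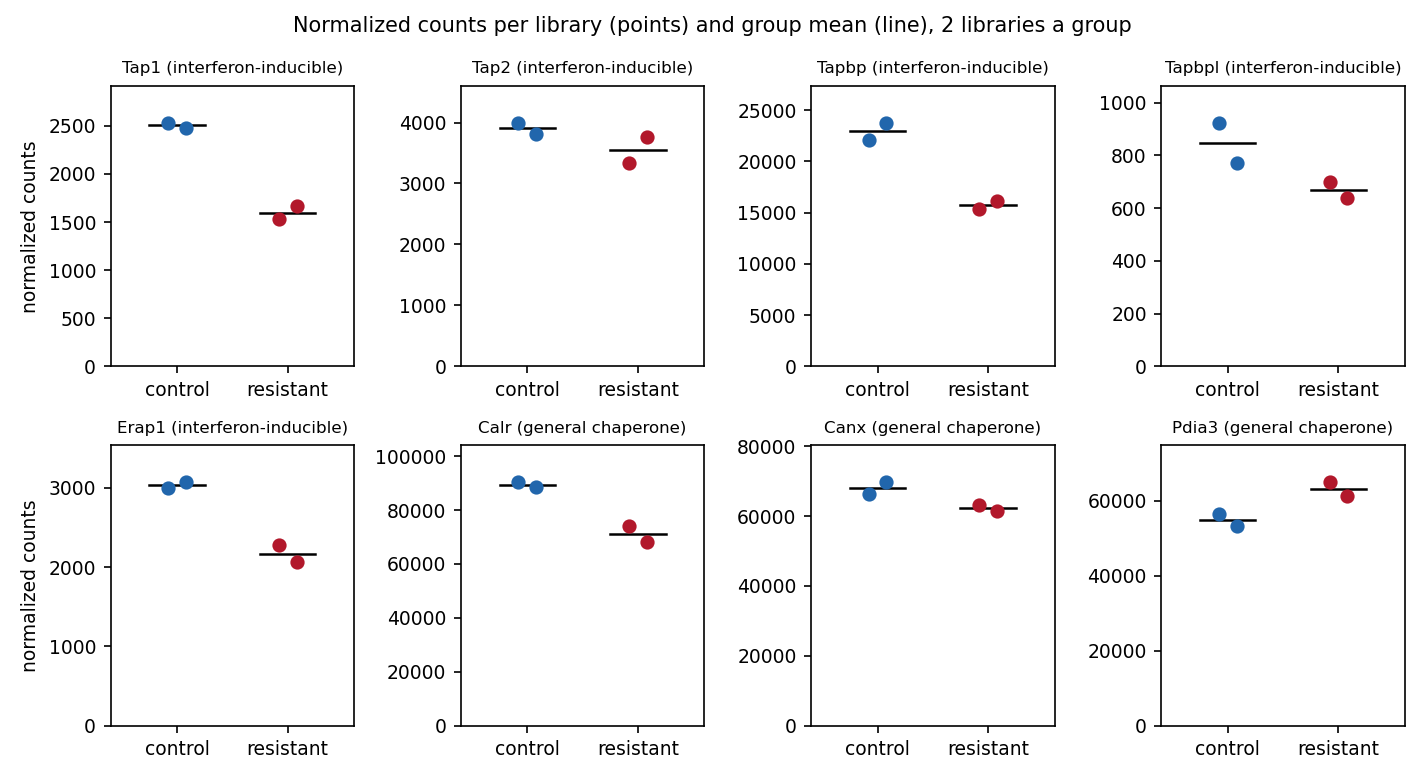
Normalized counts (vertical axis, from 0, on a separate scale for each gene) in the 2 control (blue) and 2 resistant (red) libraries, with the group mean as a line. The resistant libraries lay below the controls for 7 genes and above them for Pdia3, and the gap was widest relative to the level for Tap1, at 1531 and 1667 against 2534 and 2481.

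The members differed widely in level. Per kilobase of exon, Calr stood highest in the control cells at 31071 ± 495 normalized counts per kb, followed by Pdia3 at 17452 ± 704, Canx at 14503 ± 521 and Tapbp at 6323 ± 327 (SD, n = 2). The other members were far lower: Tap2 had 1033 ± 35.1 normalized counts per kb, Tap1 458 ± 6.86, Erap1 417 ± 7.85 and Tapbpl 360 ± 46.2. The 3 chaperones thus ranked above 99.4% of tested genes or higher in level per kb, whereas Tap1, Erap1 and Tapbpl ranked above 57.7%, 56.4% and 53.9%. In the resistant cells the 3 lowest members could not be ordered: Tap1 had 279.5 and 304 normalized counts per kb, Erap1 312 and 283, and Tapbpl 298 and 271, ranges that overlapped. These levels use the merged exons of all annotated transcripts and do not account for which isoform was made.

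Of the transporter subunits, Tap1 passed the test and Tap2 did not. Tap1 (ENSMUSG00000037321.17, chromosome 17, 34187553 to 34197225, GRCm38, plus strand) had 1531 and 1667 normalized counts in the resistant libraries and 2534 and 2481 in the controls. Both resistant libraries were clearly lower, and each of the 4 resistant-to-control pairs differed by between -0.73 and -0.57 on the log2 scale, against 0.12 within the resistant pair and 0.03 within the control pair. The fitted log2 fold change was -0.65 ± 0.11 (SE; limma, adjusted p = 0.014), with a 95% interval from -0.91 to -0.39. Of all tested genes, 7.88% had a lower log2 fold change than Tap1.

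Tap2, the partner subunit (ENSMUSG00000024339.12, chromosome 17, 34203527 to 34216321, plus strand), starts 15.97 kb downstream of Tap1. It had 3328 and 3755 normalized counts in the resistant libraries and 3999 and 3811 in the controls. The higher resistant library came within 0.02 log2 units of the lower control, and the fold change of -0.14 ± 0.11 did not pass (adjusted p = 0.464, 95% interval -0.40 to 0.12). Its exons overlap those of Gm20496 and Gm15821 on the opposite strand, which had at most 3.03 normalized counts in any library. Per length, Tap1 reached 0.438 and 0.449 of the Tap2 level in the control libraries and 0.318 and 0.306 in the resistant ones. The 2 groups did not overlap in this ratio, and its difference has no test here beyond the spread of the libraries. With 2 libraries against 2, an exact permutation test over libraries cannot give a two-sided p below 0.333. Of single tested genes, 56.7% had groups that did not overlap, and the share over other gene pairs was not computed.

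Between them lies the immunoproteasome gene Psmb8, and before Tap1 lies Psmb9, transcribed in the opposite direction. Psmb9 fell, with 1015 ± 3.63 normalized counts in the controls against 705 ± 2.60, a log2 fold change of -0.53 ± 0.13 (adjusted p = 0.0428). Psmb8 had -0.28 ± 0.10 (adjusted p = 0.142), and the class II accessory gene H2-DMb1, the next tested gene before Psmb9, had 0.39 ± 0.36 at 24.6 ± 1.94 normalized counts in control cells (adjusted p = 0.534). Exons of Tap1 and Psmb9 share 212 bases on opposite strands, 3.87% of the merged Tap1 exons, and the sources used here do not say whether counting used strand. The MHC haplotype of Balb/c differs from that of the reference genome, and its part in the counts of Tap1, Tap2 and Tapbp was not tested.

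The promoter of Tap1 is shown because it is shared with Psmb9: the windows of the 2 genes, from 250 bases before to 50 bases after each RefSeq start, have 275 bases in common. The Tap1 window lies at chr17:34187306-34187605 (RefSeq, GRCm38.p6, plus strand, 5′ to 3′):

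Tap1: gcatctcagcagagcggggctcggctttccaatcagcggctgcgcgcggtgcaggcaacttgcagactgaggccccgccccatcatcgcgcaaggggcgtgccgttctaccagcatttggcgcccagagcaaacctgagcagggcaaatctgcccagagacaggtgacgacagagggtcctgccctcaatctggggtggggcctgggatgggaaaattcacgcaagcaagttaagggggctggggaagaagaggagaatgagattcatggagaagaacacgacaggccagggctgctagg

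3 motifs are described here, each searched on both strands of each window. They are the interferon-stimulated response element (ISRE, GAAANNGAAA), the gamma-activated site (GAS, TTCNNNGAA) and the endoplasmic reticulum stress element (ERSE, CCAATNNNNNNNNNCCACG). The ERSE begins with a CCAAT box. CCAAT boxes and GC boxes (GGGCGG) were also searched on their own and are not described. Of 32851 windows of 300 bases in the RefSeq table, 3.44% held a match to the ISRE, 8.3% to the GAS and 0.119% to the ERSE. The Tap1 window held none of these letters, which says only that they are not in this stretch. RefSeq windows were matched for 6 of the 8 members, Tap1, Tapbp, Erap1, Calr, Canx and Pdia3.

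Of the tapasin genes, Tapbp passed the test and Tapbpl did not. Tapbp (ENSMUSG00000024308.15, chromosome 17, 33915899 to 33929292, plus strand), the bridge between class I molecules and TAP, starts 272 kb before Tap1. It had 15364 and 16160 normalized counts in the resistant libraries and 22101 and 23780 in the controls. The pairs of libraries differed by -0.63 to -0.45 on the log2 scale, against 0.07 and 0.11 within groups, and the log2 fold change was -0.54 ± 0.11 (limma, adjusted p = 0.023). Tapbp exons share 149 bases with Zbtb22 on the same strand and 904 bases with the antisense gene Gm19412. Zbtb22, with 2226 ± 49.5 normalized counts in control and 1989 ± 104 in resistant cells, was not called (-0.16 ± 0.11, adjusted p = 0.399). Gm19412 had 34.6 ± 7.16 and 44.9 ± 22.1 normalized counts, a small level beside that of Tapbp. The neighbours before it, Daxx, which encodes a histone chaperone, and BC051226, did not pass (-0.23 ± 0.11, adjusted p = 0.226, and -0.09 ± 0.38, adjusted p = 0.91).

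Tapbpl, the tapasin-related editor (ENSMUSG00000038213.7, chromosome 6, 125223933 to 125231860, minus strand), had 700.1 and 638 normalized counts in the resistant libraries and 924 and 771 in the controls. The groups did not overlap, but the controls lay 0.26 log2 units apart, the widest gap within a pair among the 8 genes. Its log2 fold change of -0.34 ± 0.15 did not pass (adjusted p = 0.21, 95% interval -0.69 to 0.02). It stood at -0.47 when control replicate 2, the lower control, was left out and at -0.20 without control replicate 1.

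Erap1, which trims peptides from their amino end (ENSMUSG00000021583.7, chromosome 13, 74639568 to 74693201, plus strand), had 2275 and 2063 normalized counts in the resistant libraries and 2995 and 3076 in the controls. Both resistant libraries were lower by at least 0.40 log2 units, against 0.14 and 0.04 within groups. The log2 fold change was -0.49 ± 0.11 (limma, adjusted p = 0.035, 95% interval -0.75 to -0.23). Its last exons share 834 bases with Cast, the calpain inhibitor gene on the opposite strand, or 11.5% of the merged Erap1 exons. Cast stood at 7749 ± 676 normalized counts in the controls and 8127 ± 90.8 in the resistant libraries (0.07 ± 0.11, adjusted p = 0.725). The other neighbours, Gm47469, Gm46430 and the elongation factor gene Ell2, had log2 fold changes of 0.34 ± 0.24, 0.04 ± 0.19 and 0.31 ± 0.11 and did not pass (adjusted p = 0.404, 0.924 and 0.123).

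Erap1 was the only one of the 6 members with a window to hold an ISRE match, in the opposite orientation and spanning the RefSeq start from position -4 to position 6 (no position 0). Its window, chr13:74639603-74639902 (RefSeq, GRCm38.p6, plus strand), is shown with that match in capitals:

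Erap1: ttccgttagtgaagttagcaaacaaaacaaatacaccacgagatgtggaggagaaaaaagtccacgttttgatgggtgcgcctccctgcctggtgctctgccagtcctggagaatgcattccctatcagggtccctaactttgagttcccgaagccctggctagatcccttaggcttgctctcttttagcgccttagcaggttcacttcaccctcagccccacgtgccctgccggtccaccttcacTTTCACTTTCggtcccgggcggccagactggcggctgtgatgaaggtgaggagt

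None of the general chaperones passed the test in limma, at an unadjusted p under 0.05 only Calr did so, and limma voom gave the same counts. Calr, the soluble lectin chaperone (ENSMUSG00000003814.8, chromosome 8, 84841850 to 84846934, minus strand), had 74066 and 68118 normalized counts in the resistant libraries and 90491 and 88475 in the controls. The resistant libraries lay 0.26 to 0.41 log2 units lower, more than the 0.12 and 0.03 within groups, and the log2 fold change was -0.33 ± 0.13 (adjusted p = 0.157, unadjusted 95% interval -0.64 to -0.03). On that scale Calr had a value close to that of Tapbpl, from the other class.

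Canx, the membrane-bound lectin chaperone (ENSMUSG00000020368.15, chromosome 11, 50293961 to 50325673, minus strand), had 63298 and 61330 normalized counts in the resistant libraries and 66336 and 69791 in the controls. Its log2 fold change of -0.13 ± 0.12 did not pass (adjusted p = 0.562), and the 95% interval from -0.42 to 0.16 still holds falls as large as that of Calr. Pdia3, which forms a disulfide bond with tapasin and stabilizes it in the loading complex (ENSMUSG00000027248.13, chromosome 2, 121413775 to 121438687, plus strand), had 65005 and 61112 normalized counts in the resistant libraries and 56345 and 53220 in the controls. It alone had a positive value, 0.20 ± 0.12 (adjusted p = 0.345, 95% interval -0.09 to 0.49). Per length, the ratio of Calr to Pdia3 was 1.75 and 1.81 in the controls and 1.24 and 1.21 in the resistant libraries. The groups did not overlap in this ratio, as they did not for 56.7% of single tested genes. The share over other gene pairs was not computed.

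Calr and Canx were the members with an ERSE match, a motif bound in the unfolded protein response. The match lay in the opposite orientation at positions -162 to -144 of Calr and in the same orientation at -145 to -127 of Canx, counted from the RefSeq start. Pdia3 and Tapbp had no match to any of the 3 motifs in their windows; the Tapbp window begins from a RefSeq start 3579 bases downstream of the start that GENCODE gives the gene. The 2 windows, chr8:84846882-84847181 for Calr and chr11:50325624-50325923 for Canx (RefSeq, GRCm38.p6, both minus strand, 5′ to 3′), are shown with the match in capitals:

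Calr: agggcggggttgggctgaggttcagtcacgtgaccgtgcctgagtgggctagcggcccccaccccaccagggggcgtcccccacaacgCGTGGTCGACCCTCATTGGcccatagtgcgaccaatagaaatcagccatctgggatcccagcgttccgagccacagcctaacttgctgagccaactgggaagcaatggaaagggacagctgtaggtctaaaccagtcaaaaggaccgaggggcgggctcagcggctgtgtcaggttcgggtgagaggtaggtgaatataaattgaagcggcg
Canx: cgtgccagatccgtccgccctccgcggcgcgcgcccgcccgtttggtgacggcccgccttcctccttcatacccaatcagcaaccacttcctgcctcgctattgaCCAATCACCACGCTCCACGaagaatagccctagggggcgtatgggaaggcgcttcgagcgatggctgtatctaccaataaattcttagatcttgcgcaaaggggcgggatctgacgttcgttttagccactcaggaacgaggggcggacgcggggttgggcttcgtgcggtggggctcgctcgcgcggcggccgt

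**Figure D2:**
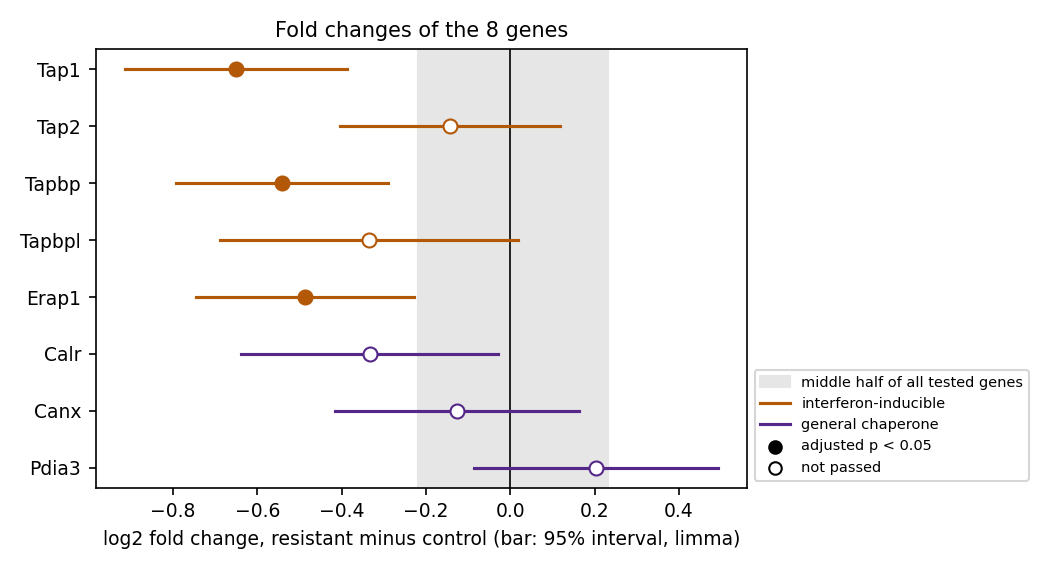
Log2 fold change, resistant minus control (horizontal axis), with its 95% interval from limma for each gene; orange marks interferon-inducible members, purple general chaperones, and filled points passed the test. The grey band runs from the first to the third quartile of all tested genes, -0.22 to 0.23: Tap1, Tapbp and Erap1 are filled and lie left of it, and the interval of Pdia3 reaches from -0.09 to 0.49.

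Set side by side, the 5 interferon-inducible members had log2 fold changes from -0.65 to -0.14 with a median of -0.49 and 3 falls, and the 3 chaperones had -0.33 to 0.20 with a median of -0.13 and 0 calls. To compare the classes within libraries, the log2 ratio of each interferon-inducible gene to each chaperone was taken in every library, which removes any scaling of a whole library. In 11 of the 15 ratios both resistant libraries lay below both controls, in 3 the groups overlapped, and in 1, Tap2 to Calr, the resistant libraries lay above. The 15 ratios are built from 8 genes and so are not independent of each other, and no test was made of the difference between the classes. The share of such ratios over other gene pairs was not computed. Among single tested genes, 28.3% had both resistant libraries below both controls and 56.7% had groups that did not overlap. For each interferon-inducible gene the ratio to Pdia3 had the widest gap, which follows from Pdia3 having the only positive log2 fold change. The log2 ratio of Tap1 to Pdia3 was -5.41 and -5.20 in the resistant libraries and -4.47 and -4.42 in the controls. Per length, Tapbp had 0.204 and 0.229 of the Pdia3 level in the resistant libraries and 0.339 and 0.387 in the controls. Against Calr the gaps were narrower, -0.32 for Tap1, -0.21 for Tapbp and -0.15 for Erap1 on the log2 scale, and Tapbpl to Calr overlapped between groups.

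**Figure D3:**
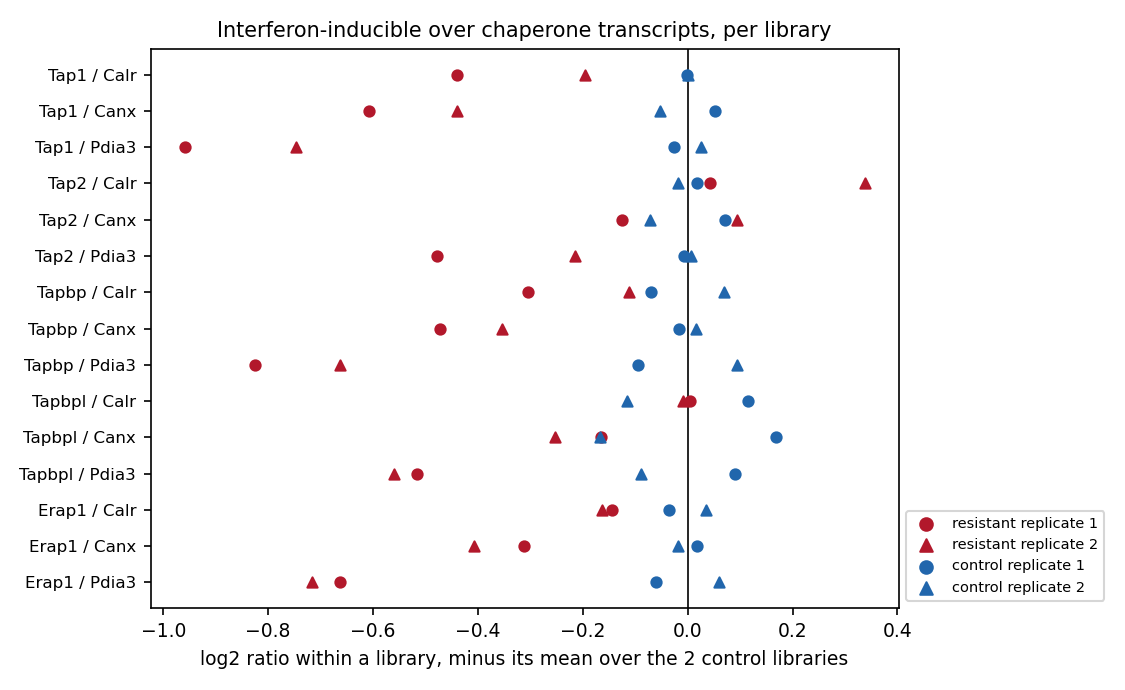
Log2 ratio of each interferon-inducible gene to each chaperone within a library, shown relative to its mean in the 2 control libraries (horizontal axis), for 15 pairs; red points are resistant and blue points control libraries. The resistant libraries lie to the left of both controls in 11 pairs, for each gene most widely in its ratio to Pdia3, overlap them in 3 and lie to the right for Tap2 to Calr. Shares over other gene pairs were not computed.

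Genes that act before or beside the loading step were taken in lists drawn up from general knowledge, with earlier results of these data known. Of 6 genes of the immunoproteasome and the proteasome activator, Psmb9 fell and none rose, the median being -0.33, and 4 were lower at an unadjusted p under 0.05. Among all tested genes 4.73% fell and 12.6% were lower at that unadjusted threshold. Leaving out control replicate 1 or 2 moved the median of the 6 genes to -0.23 and -0.45. With resistant replicate 1 or 2 removed, 0 passed and 1 was lower at an unadjusted p under 0.05 in each case. The Psmb9 call was also lost with no filter on low values and under a replicate block (adjusted p = 0.103 and 0.142). The class I heavy chain H2-D1 (-0.32 ± 0.14, adjusted p = 0.213) and the light chain B2m (-0.06 ± 0.15, adjusted p = 0.831) did not pass, nor did H2-K1 or the transactivator Nlrc5. At an unadjusted p under 0.05, 1 of these 4 was lower in limma and 2 in limma voom. Their median log2 fold change became -0.28 and -0.24 with control replicate 1 or 2 removed.

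The list of regulators of interferon-inducible genes held 2 calls. Of 11 genes for interferon receptors, Jak kinases and transcription factors, 2 fell and none rose, against 4.73% and 5.32% of all tested genes. All 11 had negative log2 fold changes, as did 49.7% of tested genes, and the list median was -0.32. At an unadjusted p under 0.05, 6 were lower, against 12.6% of tested genes, and 0 higher in limma, with the same counts in limma voom. The fallen genes encode subunits of the factor that binds the ISRE. Stat2 had 1701 ± 11.6 normalized counts in the resistant libraries against 3936 ± 190 in the controls, a log2 fold change of -1.21 ± 0.11 (adjusted p = 0.000936). Irf9 had 2506 ± 297 against 5578 ± 213, or -1.16 ± 0.12 (adjusted p = 0.00163). Removing resistant replicate 1 or 2 gave log2 fold changes of -1.22 and -1.20 for Stat2 and -1.04 and -1.28 for Irf9. The list median became -0.27 and -0.25 with control replicate 1 or 2 removed. Irf1, an interferon-gamma-induced activator of Tap1, had 5805 and 5867 normalized counts in the resistant libraries and 6804 and 7996 in the controls and did not pass (-0.34 ± 0.12, adjusted p = 0.113).

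No other peptidase was called lower. Of 10 cytosolic and endosomal peptidases none fell, against 4.73% of all tested genes, so the lack of falls alone sets the list little apart. At an unadjusted p under 0.05 none was lower in limma or limma voom, against 12.6% of all tested genes in limma. The list had a median of 0.06. Lnpep, the insulin-regulated aminopeptidase that trims peptides in endosomes and is a relative of Erap1, rose from 4608 ± 282 to 6278 ± 365 normalized counts (0.45 ± 0.11, adjusted p = 0.0424). Its 2 resistant libraries had 6020 and 6535 normalized counts against 4408 and 4808 in the controls. Lnpep did not pass with resistant replicate 1 or 2 removed (adjusted p = 0.23 and 0.386), nor when libraries were scaled to their total or upper quartile (adjusted p = 0.0587 and 0.0513). With no filter on low values and under a replicate block the adjusted p was 0.128 and 0.104.

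Beside the chaperone members, 3 lists of other endoplasmic reticulum folding genes held 1 call each. Among all tested genes 10.1% changed, so these counts set the lists little apart. Of 14 genes of the calnexin cycle and glycan trimming, Ganab, the glucosidase II subunit that prepares glycans for Calr and Canx, fell from 21095 ± 98.5 to 15709 ± 710.3 normalized counts (-0.43 ± 0.11, adjusted p = 0.045), and none rose (median -0.06). Ganab is the 1 gene of that list past the threshold, and Uggt1, the sensor that returns unfolded glycoproteins to the cycle and is named outside the rule for named genes, had -0.42 ± 0.12 without passing (adjusted p = 0.0643). Of 14 disulfide isomerases and oxidases, the oxidase Ero1l rose from 13107 ± 1132 to 25636 ± 119 normalized counts (0.97 ± 0.11, adjusted p = 0.00277), and none fell (median 0.00). Of 15 genes of the unfolded protein response and general chaperones, the Hspa5 co-chaperone Dnajb9 rose from 609 ± 4.09 to 910 ± 82.4 normalized counts (0.58 ± 0.14, adjusted p = 0.0429), and none fell (median -0.11). In limma at an unadjusted p under 0.05, 3, 1 and 3 genes of these lists were lower and 1, 2 and 1 higher. Among all tested genes 12.6% were lower and 13.8% higher. In limma voom 3, 2 and 3 were lower and 1, 2 and 2 higher. The list medians were -0.07, 0.04 and -0.10 without control replicate 1, and -0.09, -0.02 and -0.15 without control replicate 2. With resistant replicate 1 or 2 removed, only the rise of Ero1l passed in these 3 lists. With no filter on low values and under a replicate block, Ganab (adjusted p = 0.116 and 0.163) and Dnajb9 (0.115 and 0.111) did not pass. Ganab was also lost at a mean of 100 normalized counts (adjusted p = 0.0501), and Dnajb9 when scaled to the library total (adjusted p = 0.0565).

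**Figure D4:**
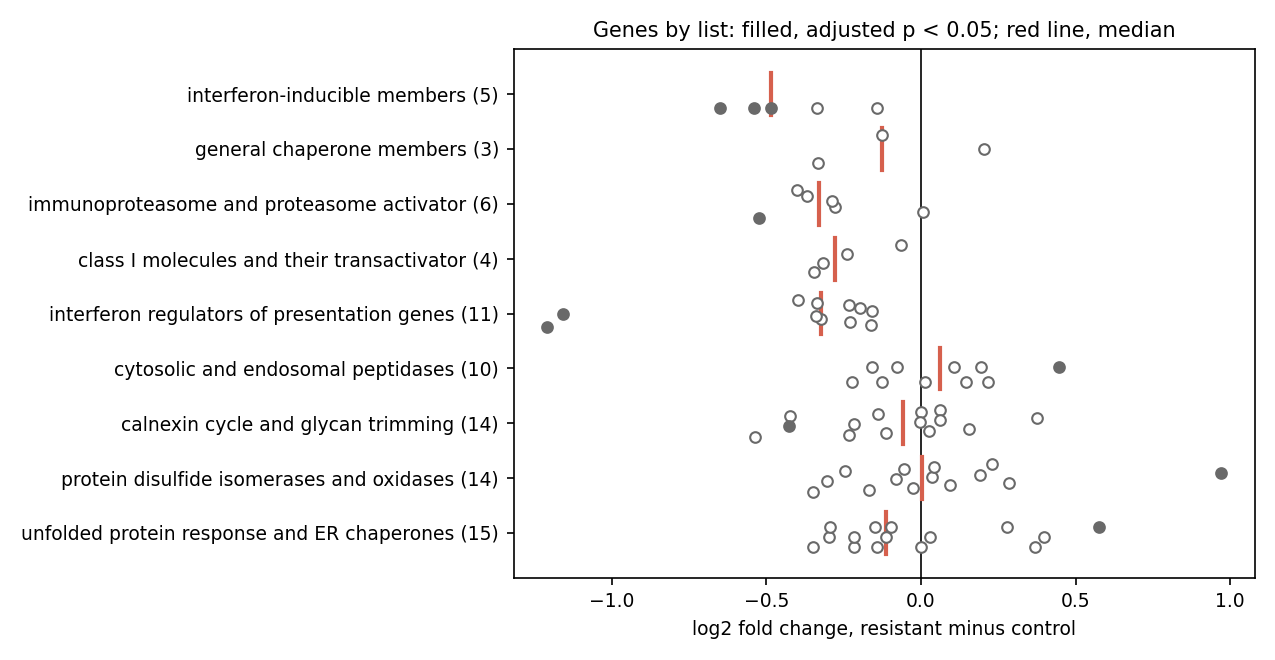
Log2 fold change, resistant minus control (horizontal axis), of the tested genes of the 2 member classes and 7 lists; filled points passed the test in limma, the red line is the list's median, and numbers in parentheses count the genes. Stat2 and Irf9 lie farthest left, at -1.21 and -1.16, and Ero1l farthest right, at 0.97.

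The genes whose pattern over the 4 libraries lay nearest to 2 of the members were found among 11122 genes averaging 100 normalized counts or more, by Euclidean distance between log2 values centred on each gene's mean. Nearest to Tap1 were Znfx1, an interferon-inducible RNA helicase (distance 0.0263, log2 fold change -0.65 ± 0.11), Mpzl1, a cell surface glycoprotein gene (0.0371, -0.63 ± 0.10), and Whrn, a scaffold protein gene (0.0493, -0.70 ± 0.13). All 3 fell (adjusted p = 0.011, 0.0104 and 0.0157). Nearest to Calr was Dnajb11, another chaperone of the endoplasmic reticulum (distance 0.0216), with 7503 ± 198 normalized counts in control and 5897 ± 336 in resistant cells (-0.35 ± 0.10, adjusted p = 0.0799). Zscan2 and Smim8 followed at 0.0264 and 0.0345. With 4 libraries in 2 groups such nearness reflects mainly the size of the group difference.

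Without control replicates 1 and 2, Tap1 had log2 fold changes of -0.64 and -0.67 and Tapbp -0.59 and -0.49. Erap1 had -0.51 and -0.47. In those fits the spread comes from the resistant pair alone. As in every fit here, limma moderates each gene's spread by that of all tested genes. That pair had a median absolute log2 difference of 0.14 over tested genes, against 0.22 in the control pair. The 3 calls were lost without either resistant library and with no filter on low values, and under a replicate block Tap1 alone passed. Without resistant replicate 1 or 2, when the spread comes from the control pair alone, none of the 8 genes passed in limma, and at an unadjusted p under 0.05, 3 and 2 were lower. The log2 fold changes themselves moved little, to -0.59 and -0.71 for Tap1, -0.50 and -0.58 for Tapbp and -0.56 and -0.42 for Erap1. The design text calls the 2 libraries of a group biological replicates, without naming the mice, and the p-values measure no more than the spread between these libraries.

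**Figure D5:**
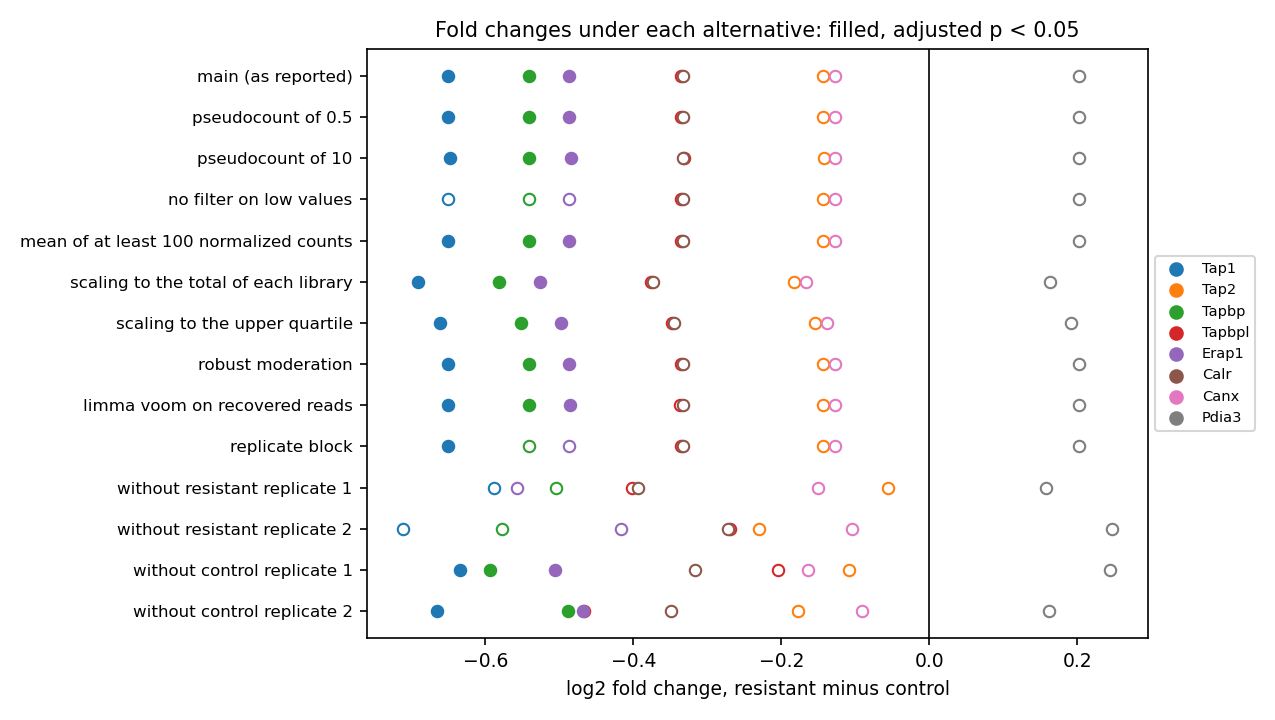
Log2 fold change, resistant minus control (horizontal axis), of the 8 genes as reported and under each of 13 alternatives (rows); filled points passed the test. Directions stayed the same in every row, with Pdia3 between 0.16 and 0.25, while no gene is filled with no filter on low values or without either resistant library.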

How the data were processed

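The authors deposited 1 table of log2 values for the 4 libraries, made with STAR, DESeq2 and mm10 per the submitters' processing notes, whose versions, annotation and strand setting are not given in the sources used here. The deposited values are log2(normalized count + 1). Undoing the log gave whole numbers of reads, after division by a constant found for each library, for 100% of values (tolerance 0.01 reads). Groups came from the sample source labels. Symbols, coordinates and merged exon lengths came from GENCODE M21 (GRCm38), joined for 55144 of 55385 identifiers without their version.

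Genes averaging 10 normalized counts or more were fitted by lmFit and eBayes of limma 3.58.1 (R 4.3.3) with a trend and no block, adjusted by Benjamini-Hochberg over all 14238 tested genes. The fit was also run on simulated reads that gave all genes and both groups 1 dispersion. The real pairs differed in spread, with median absolute log2 differences of 0.14 (resistant) and 0.22 (control). That run therefore does not cover their unequal spread. Fold changes with a pseudocount of 1 understate changes of low genes. Members and lists were chosen with earlier results of these data known. Named genes are the members, up to 4 passing genes of each list by smallest p (else the 2 highest), the 2 nearest tested genes on each side of a member that passed, and the 3 genes nearest in pattern to Tap1 and Calr; others are marked or illustrate a list. Nrdc was matched as Nrd1. 1 gene of the list of interferon regulators is not reported here. Alternatives were other pseudocounts, filters, scalings, moderation, voom, a replicate block and leaving out each library.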

Additional observations from a re-analysis of the deposited data

How the results depend on the processing

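Over the 13 alternatives all 8 genes kept their direction. Tap1 ranged from -0.71 to -0.59, Tapbp from -0.59 to -0.49, Erap1 from -0.56 to -0.42 and Pdia3 from 0.16 to 0.25 on the log2 scale. With no filter on low values, where 26782 genes were tested, 0 of the 8 fell in limma (4 were lower at an unadjusted p under 0.05; adjusted p = 0.0649 for Tap1, 0.0848 for Tapbp and 0.108 for Erap1), and 185 of all genes fell and 126 rose. When genes had to average 100 normalized counts, 444 fell. Leaving out 1 library in turn gave 0 to 4 members that fell, 234 to 1993 genes that fell and 146 to 2074 that rose; a group left with 1 library is assumed to vary like the other. A replicate block left 1 member that fell, Tap1 (adjusted p = 0.0194, against 0.0582 for Tapbp and 0.0874 for Erap1). The replicate numbers only name samples: the differences of replicate 1 minus replicate 2 correlated with r = -0.36 between the groups across 14238 genes, which are not independent replicates. In each other alternative 3 members fell, and in all alternatives 0 members rose. Depth limits none of the 8 genes, and the number of libraries sets the precision.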
